A study of Mus musculus with 5 samples.

Results

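The mitochondrial respiratory chain subunits were taken as all array probes whose platform symbol begins with Ndufa, Ndufb, Ndufc, Ndufs or Ndufv and a digit, is Sdha to Sdhd, Cyc1 or Cycs, or begins with Uqcr, Cox4 to Cox8, or Atp5. The brightest probe stood for each gene, which gave 73 genes on 83 probes, of 17739 named genes and 26423 probes on the array. Complex I had 33 of these genes, complex II had 4, complex III had 6, complex IV had 17 and complex V had 13. Cyc1, Cycs and Atp5g2 are not analysed here. Names were counted as the platform gives them. Cox4nb is an older name of Emc8, a protein of the endoplasmic reticulum, and Atp5s and Atp5sl are older names of Dmac2l and Dmac2 in RefSeq.

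The RNA came from the striatum of 5 male FVB mice aged 12 months, and was amplified, labelled with Cy5 and measured on a single-colour array. In 3 mice, called HD_miR196a, a transgene for the precursor of the microRNA miR-196a was present together with a Huntington's disease transgene, and the other 2 mice, called HD, carried the disease transgene alone. The disease transgene, shared by all 5 mice, joined GFP to a human HTT exon 1 that holds 84 CAG repeats. Both transgenes were driven by a human ubiquitin promoter, which is not restricted to a cell type. No mice without the disease transgene were analysed here, and the level of miR-196a itself is not analysed here. The comparison asks whether overexpressed miR-196a goes with other levels of respiratory chain transcripts in mice that carry mutant HTT.

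The respiratory chain sits in the inner mitochondrial membrane. Complex I takes electrons from NADH and complex II takes them from succinate, complex III passes them by way of cytochrome c to complex IV, which reduces oxygen, and complex V, the ATP synthase, uses the resulting proton gradient to make ATP. Nearly all subunits are encoded in the nucleus, and the striatum is a tissue in which loss of complex II activity, by inhibitors or in Huntington's disease, has long been studied.

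The mature miR-196a-5p, the molecule that sets the groups apart, is shown with its seed, bases 2 to 8, in capitals. RefSeq (GRCm38.p6) gives the same 22 bases at chr11:96265187-96265208 on the plus strand (Mir196a-1) and at chr15:102973365-102973386 on the plus strand (Mir196a-2).
miR-196a-5p: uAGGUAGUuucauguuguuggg

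A feature that the choice of genes did not use is the promoter sequence. Windows of 250 bases before to 50 after the RefSeq start site were found for 59 of the 73 genes, and 14 had no entry under their symbol. The letters CGCANGCG, the core of the motif bound by nuclear respiratory factor 1 (NRF1), an activator of many respiratory chain genes, were searched on both strands. They occurred in the windows of 20 of these 59 genes, or 33.9%, against 14.2% of 13980 genes measured on the array and 9.22% of 27025 genes in the RefSeq table. CCGGAAG, bound by GABPA (nuclear respiratory factor 2), occurred in 11 of 59 (18.6%), against 14.3% of the array's genes. AAGATGGCG, bound by YY1, occurred in 6 of 59 (10.2%), against 2.44% of the array's genes. A match is only a match of letters in this window. The median difference between HD_miR196a and HD mice was -0.012 on the log2 scale for the 20 genes with the NRF1 letters and -0.006 for the 39 without. One stretch upstream of the start site is shown for complexes I, II, IV and V, as examples of where the match lies, with the NRF1 letters in capitals. They lie in GRCm38.p6 at chr17:33824540-33824597 on the plus strand (Ndufa7, complex I), chr13:74350305-74350362 on the minus strand (Sdha, complex II), chr5:115349087-115349144 on the minus strand (Cox6a1, complex IV) and chr2:10080451-10080508 on the minus strand (Atp5c1, complex V).
Ndufa7: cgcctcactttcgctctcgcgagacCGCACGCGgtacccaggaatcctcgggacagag
Sdha: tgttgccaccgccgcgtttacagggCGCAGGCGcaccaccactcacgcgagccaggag
Cox6a1: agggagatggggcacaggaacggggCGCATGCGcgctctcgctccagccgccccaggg
Atp5c1: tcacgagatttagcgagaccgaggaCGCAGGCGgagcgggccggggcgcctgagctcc

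No respiratory chain gene passed the test between HD_miR196a and HD mice, and the differences were small. The values below are log2 of quantile-normalized intensity, differences are HD_miR196a minus HD with the standard error (SE) of the limma fit, and adjusted p-values are Benjamini-Hochberg values over all 26423 probes. By that test 0 of 26423 probes (0%) were called at an adjusted p under 0.05, so the members' count of 0 equals the background. All 73 members had an adjusted p of 0.979 or more. The difference was above 0 in 35 and below 0 in 38 of the 73 genes, a share of 47.9% above 0, against 48.9% of all named genes. The median difference was -0.004 for the members and -0.004 for all named genes. In bulk tissue, fewer cells of a type and less RNA per cell cannot be told apart.

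At an unadjusted p under 0.05, 0 members were higher and 2 were lower, Cox8b and Cox7b2, where 1.82% and 1.89% of all named genes were higher and lower at that p. The groups did not overlap in 4 members that were higher in all HD_miR196a mice (Cox4i2, Cox6c, Cox8c and Atp5j2) and in 7 that were lower (Ndufa7, Ndufb11, Ndufs1, Uqcrc2, Cox7b2, Cox8b and Atp5a1). Such separation occurred in 9.99% of all named genes in the higher direction and in 10.7% in the lower direction, so both counts lie near or below the background. Cox6c, Atp5j2 and Ndufa7 are named here after their values were seen. Cox4i2, Cox6c, Cox8c, Cox7b2 and Cox8b had dim probes, below the background limit defined in the next paragraph. Among members above that limit, 1 was higher and 5 were lower without overlap, against 811 and 944 of 8661 named genes above it.

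The precision behind these values was read from the 95% intervals. For 61 of the 73 genes (83.6%) the interval lay wholly within 0.5 on the log2 scale, a 1.41-fold difference, in either direction, against 8863 of all 17739 named genes. The median absolute difference was 0.066 for the members and 0.11 for all named genes, and the median SD within a group was 0.11 for the members and 0.16 for all named genes. The members were brighter than most probes. Background was judged from olfactory receptor genes, nearly all of which should be silent in this tissue. Their 543 probes had a 95th percentile of 8.31 (log2), and 60 of the 73 members (82.2%) lay above it, against 48.8% of all named genes. Among genes above that limit, the interval lay within 0.5 for 54 of 60 members and for 64.6% of all named genes.

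**Figure D1:**
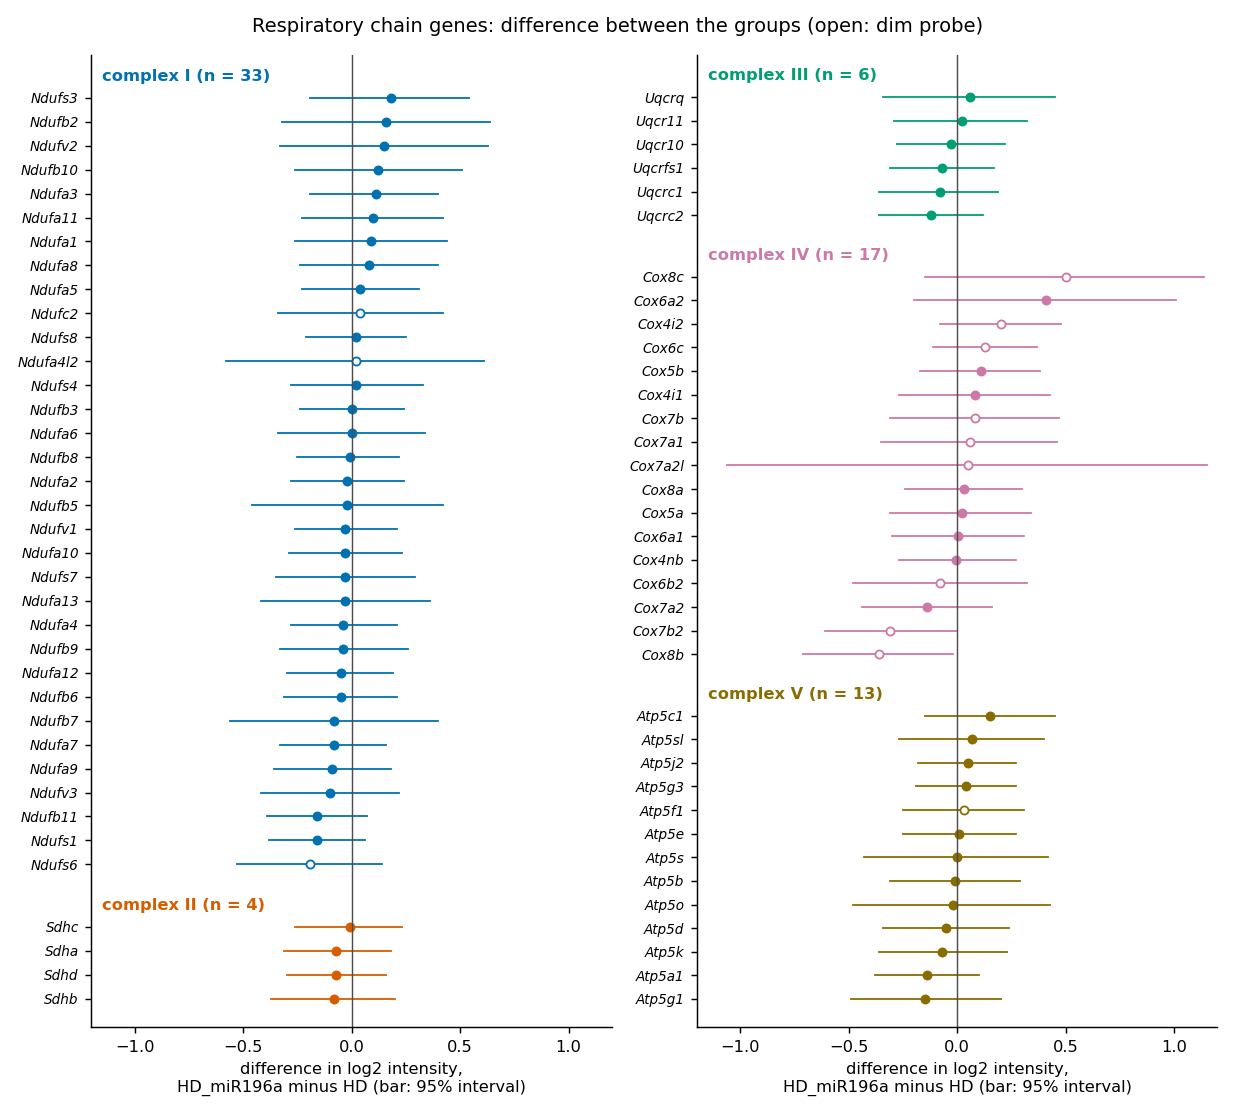
Difference in log2 intensity, HD_miR196a (n = 3 mice) minus HD (n = 2 mice), for each of the 73 genes by complex, with the 95% interval of the limma fit as a bar and genes with dim probes as open circles. Differences run from -0.36 (Cox8b) to 0.50 (Cox8c), and the intervals of Cox8b and Cox7b2 are the only ones that leave out 0.

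Complex I oxidizes NADH through Ndufv1, which holds the flavin, and passes electrons along iron-sulfur clusters held by Ndufv2 and Ndufs1. Ndufs1, the largest subunit, had log2 values of 11.19, 11.17 and 11.17 in HD_miR196a mice 1 to 3, against 11.34 and 11.33 in HD mice 1 and 2. All 3 HD_miR196a values lay below both HD values, and the groups did not overlap. The difference was -0.16 ± 0.08 (SE), a fold of 0.895, with an adjusted p = 0.979 by limma, and it stayed between -0.17 and -0.16 when any 1 mouse was left out. Ndufv1 had 13.67, 13.73 and 13.68 in HD_miR196a mice, against 13.76 and 13.68 in HD mice, and the groups overlapped. Ndufv2 had 9.20, 9.08 and 9.45 in HD_miR196a mice, against 9.30 and 8.89 in HD mice, so that its lowest value was in HD mouse 2 and its highest in HD_miR196a mouse 3.

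The part of complex I that carries electrons on to ubiquinone includes Ndufs3, Ndufs7 and Ndufs8. Ndufs3 showed the largest positive difference in complex I, with 11.04, 11.18 and 11.41 in HD_miR196a mice, against 11.06 and 11.01 in HD mice. HD_miR196a mouse 3 was highest and mouse 1 lay between the HD values. The difference of 0.18 ± 0.14 (SE) did not pass the test (limma, adjusted p = 0.979), and without HD_miR196a mouse 3 it was 0.078. Ndufs7 and Ndufs8, which bind the iron-sulfur clusters next to the quinone site, differed by -0.03 ± 0.12 and 0.02 ± 0.09 (SE).

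Among accessory subunits of complex I, Ndufb11, a membrane-arm subunit, had 9.06, 9.09 and 9.06 in HD_miR196a mice, against 9.28 and 9.18 in HD mice. The 3 HD_miR196a values lay close together and below both HD values, for a difference of -0.16 ± 0.09 (SE) and an adjusted p = 0.979 by limma. Ndufb11 was named for being among the 3 smallest p of the complex, so its separation is no separate result. Ndufs6, which binds zinc, had a dim probe, with 7.37, 7.18 and 7.42 in HD_miR196a mice, against 7.62 and 7.42 in HD mice. Its values met at 7.42, which left a difference of -0.19 ± 0.13 (SE), the most negative in the complex. The brightest probes of complex I were those of Ndufa4 and Ndufa6. Ndufa4, now counted as a subunit of complex IV, differed by -0.04 ± 0.09 (SE), and Ndufa6, a small subunit of the matrix arm, had a fold of 1 with values of 14.95, 14.83 and 14.87 in HD_miR196a mice, against 15.04 and 14.73 in HD mice. HD mouse 1 was above and HD mouse 2 below all HD_miR196a mice for Ndufa6.

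Ndufa6 shows a pattern that part of the complex shared. HD mouse 1 was the highest of the 5 mice in 11 of the 33 complex I genes (33.3%) and the lowest in 0. Of all named genes, it was the highest in 21.1% and the lowest in 17.3%. HD mouse 2 was the highest in 2 (6.06%) and the lowest in 11 (33.3%), against 20.8% and 22.8% of all named genes. Median deviations from each gene's mean were -0.022, -0.012 and 0.004 in HD_miR196a mice 1 to 3, against 0.056 and -0.039 in HD mice 1 and 2. The HD_miR196a mice thus lay between the HD mice, and the median difference of the complex was -0.018, with 15 genes above 0 and 18 below. It was 0.033 without HD mouse 1, so the direction of this median rests on 1 mouse. The contrast between the HD mice is not particular to complex I. Median deviations of mitochondrial ribosomal protein genes were 0.067 in HD mouse 1 and -0.042 in HD mouse 2.

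Complex II, succinate dehydrogenase, is the link between the citric acid cycle and the respiratory chain. Sdha, the flavin-bearing catalytic subunit, had 13.43, 13.48 and 13.45 in HD_miR196a mice, against 13.58 and 13.46 in HD mice. Sdhb, the iron-sulfur subunit, had 13.26, 13.22 and 13.32 in HD_miR196a mice, against 13.45 and 13.25 in HD mice. Both subunits were highest in HD mouse 1, while HD mouse 2 lay within the HD_miR196a range. Sdhd, one of the membrane anchors, had 12.24, 12.23 and 12.30 in HD_miR196a mice, against 12.36 and 12.28 in HD mice. Sdhc, the other anchor, had 11.46, 11.33 and 11.35 in HD_miR196a mice, against 11.40 and 11.38 in HD mice, and was highest in HD_miR196a mouse 1.

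All 4 differences of complex II were below 0 and smaller than their standard errors, at -0.07 ± 0.09 for Sdha, -0.08 ± 0.11 for Sdhb, -0.01 ± 0.09 for Sdhc and -0.07 ± 0.09 for Sdhd (SE). Adjusted p-values by limma were 0.982 for Sdha and 1 for Sdhc. Their 95% intervals ran from -0.37 to 0.23 at the widest bounds, so a 1.41-fold difference lies outside all 4. The median of the complex was -0.068, and it was -0.005 without HD mouse 1 and -0.119 without HD mouse 2. The deposited intensities of Sdha were 9493, 10764 and 11247 in HD_miR196a mice, against 13413 and 12439 in HD mice. They thus did not overlap before the arrays were scaled to a common distribution, and neither did those of Sdhb, Sdhc and Sdhd. This is not particular to complex II, since without scaling 61.6% of members and 43.1% of all named genes did not overlap.

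Complex III is built around cytochrome b, cytochrome c1 and the Rieske iron-sulfur protein, and the Uqcrc subunits form its large matrix-facing core. Uqcrc2 had 14.26, 14.25 and 14.15 in HD_miR196a mice, against 14.37 and 14.32 in HD mice. The groups did not overlap, and the difference was -0.12 ± 0.09 (SE), a fold of 0.92 (limma, adjusted p = 0.979). Uqcrc1, its partner, had 12.61, 12.53 and 12.43 in HD_miR196a mice, against 12.54 and 12.66 in HD mice, and the groups overlapped. Uqcrfs1, the Rieske protein, had 13.12, 13.08 and 13.13 in HD_miR196a mice, against 13.12 and 13.24 in HD mice, with HD mouse 2 above the rest.

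The small subunits of complex III lay closer to 0 or above it, at -0.03 ± 0.10 for Uqcr10, 0.02 ± 0.12 for Uqcr11 and 0.06 ± 0.15 for Uqcrq (SE). The complex had 2 genes above 0 and 4 below, with a median of -0.048. Its median deviations were -0.017, -0.004 and -0.030 in HD_miR196a mice 1 to 3, against 0.014 and 0.057 in HD mice 1 and 2, and the groups did not overlap. This was the one complex in which they were apart, by an amount within the standard error of any single member. Without HD mouse 2 the median was -0.018.

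**Figure D2:**
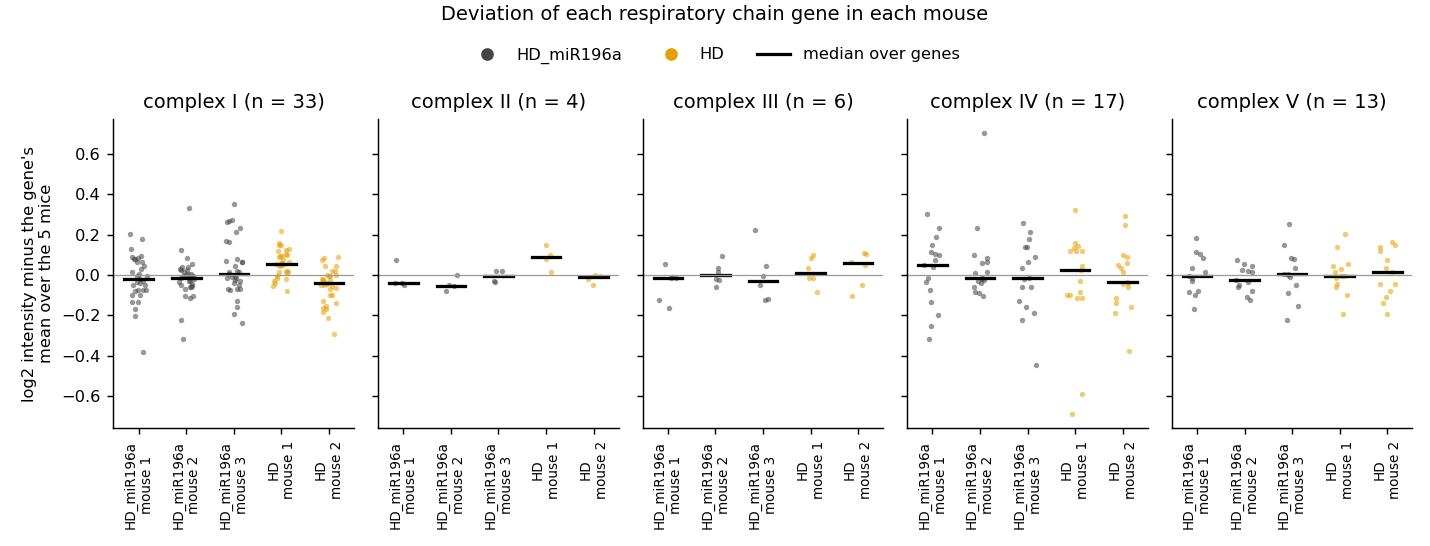
Log2 intensity of each gene minus its mean over the 5 mice, for HD_miR196a mice (dark) and HD mice (orange), by complex, with bars at the median over genes. In complex I the medians of the HD mice, 0.056 and -0.039, lie on either side of the HD_miR196a medians, and in complex III both HD medians, 0.014 and 0.057, lie above the HD_miR196a medians.

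Complex IV, cytochrome c oxidase, combines subunits encoded in mitochondria, which are not members here, with nuclear subunits that include isoforms used in few tissues. Cox5a, a nuclear subunit on the matrix side, had one of the brightest probes, with 15.23, 15.23 and 15.31 in HD_miR196a mice, against 15.38 and 15.09 in HD mice. HD mouse 1 was highest and HD mouse 2 lowest, and the difference was 0.02 ± 0.12 (SE). Cox4i1, the widely expressed form of the subunit that binds ATP, had 14.87, 14.82 and 15.12 in HD_miR196a mice, against 14.93 and 14.79 in HD mice, with HD_miR196a mouse 3 highest. Cox5b, which binds zinc, differed by 0.11 ± 0.11 (SE), and Cox8a, a small widely expressed subunit, by 0.03 ± 0.10 (SE), both with overlapping groups. The Cox5b probe had a mean level of 8.31, which equals the background limit as printed, though it is counted as above it. That of Cox8a was 14.95.

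The isoforms of restricted range held the largest differences of the whole set, in both directions and mostly on dim probes. Of the 7 genes, 4 were above 0 and 3 below, and 1 of 7, Cox6a2, lay above the background limit. Cox8b, the heart and muscle form of subunit 8, had 6.13, 6.34 and 6.43 in HD_miR196a mice, against 6.59 and 6.74 in HD mice. The groups did not overlap, and the difference was -0.36 ± 0.13 (SE), a fold of 0.778 with an unadjusted p of 0.0431 and an adjusted p = 0.979 by limma. Cox7b2, described in testis, had 7.18, 7.34 and 7.41 in HD_miR196a mice, against 7.55 and 7.68 in HD mice. Its groups were likewise apart, by -0.31 ± 0.12 (SE), with an unadjusted p of 0.0476 and an adjusted p = 0.979 by limma. Both probes lay below the background limit.

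In the other direction, Cox8c, the testis form of subunit 8, had 6.18, 6.18 and 6.09 in HD_miR196a mice, against 5.26 and 6.04 in HD mice. The HD_miR196a mice were higher than both, but HD mouse 1 alone was far lower, and the difference of 0.50 ± 0.25 (SE) was 0.111 without it. Cox6a2, the heart and muscle form of subunit 6a, had 8.85, 8.65 and 8.64 in HD_miR196a mice, against 7.96 and 8.65 in HD mice. It too was low in HD mouse 1 alone, and its difference of 0.41 ± 0.23 (SE) was 0.059 without that mouse. A second, dimmer probe of Cox6a2 differed by -0.16 ± 0.20 (SE). Cox4i2, the form of subunit 4 typical of lung, had 7.18, 7.04 and 7.26 in HD_miR196a mice, against 6.98 and 6.94 in HD mice, a difference of 0.20 ± 0.11 (SE) between groups that did not overlap. Cox6b2 and Cox7a1, of testis and of heart and muscle, differed by -0.08 ± 0.15 and 0.06 ± 0.16 (SE).

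Complex IV as a whole had 12 of 17 genes above 0 (70.6%), against 48.9% of all named genes, and a median of 0.048. These 17 genes include Cox4nb, the older name of Emc8, and leave out Ndufa4. With Ndufa4 counted in complex IV and Cox7a2l left out, the median was 0.030. Leaving out Cox4nb as well, which was not planned, gave 0.045. The median deviations by mouse overlapped, at 0.049, -0.019 and -0.015 in HD_miR196a mice 1 to 3, against 0.019 and -0.036 in HD mice 1 and 2. Dim probes made up more of this complex than of the others, since 8 of its 17 genes lay above the background limit, against 30 of 33 in complex I and 12 of 13 in complex V. With only the brighter 13211 probes of the array, its median exceeded that of all named genes by 0.016.

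Complex V makes ATP in its F1 part, where Atp5a1 and Atp5b form the catalytic ring around the shaft subunit Atp5c1. Atp5a1, the alpha subunit, had 13.06, 13.06 and 13.13 in HD_miR196a mice, against 13.17 and 13.28 in HD mice. The groups did not overlap, and the difference was -0.14 ± 0.09 (SE), a fold of 0.906 (limma, adjusted p = 0.979). Atp5b, the beta subunit, had 10.67, 10.64 and 10.78 in HD_miR196a mice, against 10.60 and 10.82 in HD mice, with both extremes in the HD mice. Atp5c1 had 8.47, 8.53 and 8.63 in HD_miR196a mice, against 8.29 and 8.50 in HD mice, a difference of 0.15 ± 0.12 (SE). The alpha and gamma subunits of one enzyme thus had differences of opposite sign, neither of which passed the test. The gamma probe, of Atp5c1, had a mean level of 8.48, near the background limit of 8.31, and lay below that limit in HD mouse 1. Atp5d, the delta subunit, differed by -0.05 ± 0.11 (SE).

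The membrane ring of the ATP synthase is made of subunit c, which several genes encode as the same mature protein. Atp5g1 had 12.96, 12.84 and 12.65 in HD_miR196a mice, against 12.89 and 13.04 in HD mice, a difference of -0.15 ± 0.13 (SE) with overlapping groups. Atp5g3, the brighter probe, had 14.80, 14.74 and 14.80 in HD_miR196a mice, against 14.76 and 14.72 in HD mice, a difference of 0.04 ± 0.09 (SE). Over the 13 genes of the complex 6 were above 0 and 7 below, and the median was -0.002. These genes include Atp5s and Atp5sl, the older names of Dmac2l and Dmac2. Without them, in an alternative that did not count them as subunits, the median was -0.006. All 13 intervals lay within 0.5 on the log2 scale.

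The medians of the 5 complexes thus spanned -0.068 (complex II) to 0.048 (complex IV). The standard deviation of the mouse medians within groups, pooled over both groups, was 0.016 (complex V) to 0.047 (complex II). Relative to the median of all named genes in the same fit, complex II lay between -0.102 and -0.008, complex III between -0.077 and -0.001 and complex IV between 0.016 and 0.069 over 15 settings. Complexes I and V changed sign among these settings, with ranges of -0.04 to 0.03 and -0.036 to 0.04. The settings are not separate checks, since several gave equal values on this relative scale. Another variance model gave the values of the reported fit, and no scaling gave those of median centring. The mouse number as a block gave those of the fit without HD_miR196a mouse 3. Without any scaling of the arrays the median of all named genes itself was -0.208 and that of complex IV was -0.139. No test of a difference between complexes was made.

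**Figure D3:**
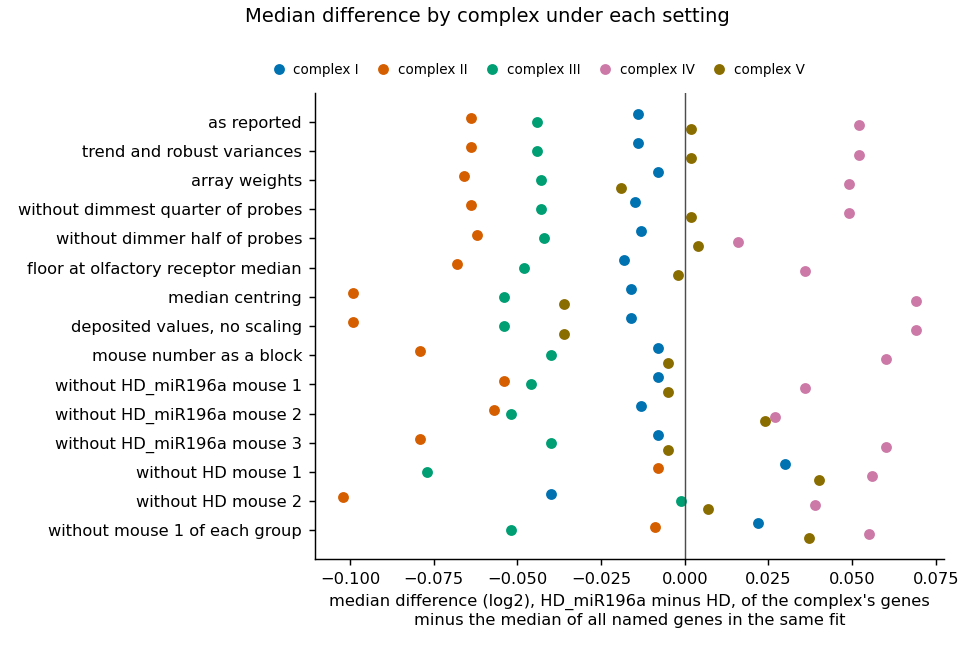
Median difference (log2) of each complex minus the median of all named genes, HD_miR196a minus HD, in the fit as reported and in 14 alternative fits. Complexes II and III stay below 0 and complex IV above 0, while complexes I and V fall on both sides, at 0.03 and 0.04 without HD mouse 1. Several fits have equal values, so the 14 alternatives are not separate checks, and complex III reaches -0.001 without HD mouse 2.

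The scale of the arrays bears directly on these counts. Deposited median intensities over all probes were 160.0, 166.3 and 166.2 in HD_miR196a mice, against 184.3 and 185.6 in HD mice, and quantile normalization removes this gap. On the deposited values without scaling 3 of 73 members (4.11%) were above 0, against 14.3% of all named genes, 17 members (23.3%) had an unadjusted p under 0.05, against 14.9% of all named genes, and 0 members passed the adjusted threshold by limma. With each array centred on its median 24 of 73 (32.9%) were above 0, against 41.8% of all named genes. Whether the gap between the groups is one of scaling or of RNA was not tested. The count above 0 also moved with single HD mice. It was 45 of 73 (61.6%) without HD mouse 1, against 50.6% of all named genes. Without HD mouse 2 it was 25 of 73 (34.2%), against 46.3% of all named genes.

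**Figure D4:**
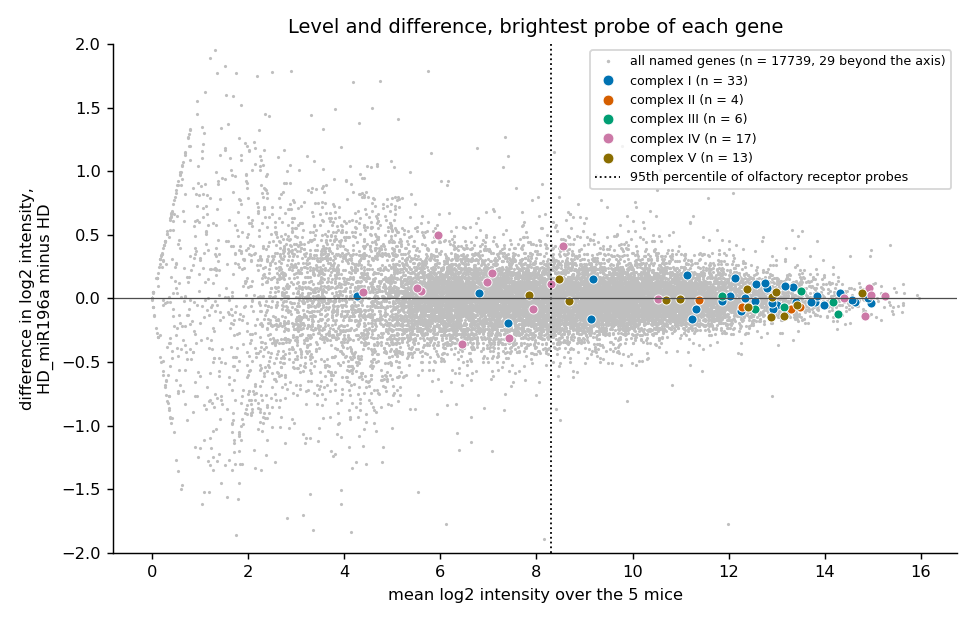
Mean log2 intensity over the 5 mice (horizontal) and difference in log2 intensity, HD_miR196a minus HD (vertical), for the brightest probe of each of 17739 named genes (grey) and of the respiratory chain genes (coloured by complex). Most members lie right of the dotted line at 8.31, the 95th percentile of olfactory receptor probes, and within the band of the other genes. The vertical axis leaves out 29 genes.

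Of the members, 9 had more than 1 probe, and 6 of the 10 dimmer probes had a difference of the opposite sign to the brightest. Ndufv3, a small subunit of complex I that occurs in a short and a long form, differed by -0.10 ± 0.12 (SE) on its brightest probe, and by 0.02 ± 0.08 and -0.34 ± 0.19 on the others. Ndufa11, a membrane-arm subunit, differed by 0.10 ± 0.12 on its brightest probe and by -0.20 ± 0.11 on a dim one whose groups did not overlap. These genes were named after their values were seen. With the mean of a gene's probes in place of the brightest, 34 of 73 members were above 0.

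No gene that acts with the respiratory chain, by the lists used here, was called. Of 46 listed assembly factors, 41 were measured, 23 were above 0 and 18 below, with a median of 0.017. Bcs1l, which inserts the Rieske protein into complex III, had 10.59, 10.59 and 10.40 in HD_miR196a mice, against 10.33 and 10.33 in HD mice, for a difference of 0.19 ± 0.11 (SE). Cox10, which makes heme for complex IV, had 11.09, 11.09 and 11.21 in HD_miR196a mice, against 11.26 and 11.36 in HD mice, for a difference of -0.18 ± 0.10 (SE). Neither gene's groups overlapped and both had an adjusted p = 0.979 by limma. These 2 genes were named for the smallest p of the list, so their separation is no separate result. Of the 41 factors, 5 were higher and 1 lower without overlap, where 9.99% and 10.7% of all named genes were so.

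Of 17 listed enzymes of the citric acid cycle 16 were measured, 7 above 0 and 9 below, with a median of -0.026. Dlst, a subunit of 2-oxoglutarate dehydrogenase, had 12.42, 12.41 and 12.32 in HD_miR196a mice, against 12.24 and 12.17 in HD mice, and Idh3a, of the NAD-linked isocitrate dehydrogenase, had 13.39, 13.37 and 13.48 in HD_miR196a mice, against 13.54 and 13.52 in HD mice. Their differences of 0.18 ± 0.09 and -0.12 ± 0.09 (SE) had opposite signs. Of 20 listed carriers and other electron donors 18 were measured, 5 above 0 and 13 below, with a median of -0.041. The 67 mitochondrial ribosomal protein genes had 30 above 0 and a median of -0.013, and of 40 cytosolic ribosomal protein genes 15 were above 0, with a median of -0.069.

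Regulators of respiratory chain transcription were also measured, with 17 of 19 listed genes present, 7 above 0 and 10 below, and a median of -0.032. Ppargc1a, the coactivator PGC-1alpha, had 9.47, 9.32 and 9.21 in HD_miR196a mice, against 9.41 and 9.53 in HD mice, a difference of -0.14 ± 0.12 (SE) with overlapping groups. Gabpa, the factor that binds CCGGAAG, had 9.51, 9.43 and 9.42 in HD_miR196a mice, against 9.56 and 9.52 in HD mice, and was lower in all HD_miR196a mice by a difference of -0.09 ± 0.09 (SE). Esrra, a nuclear receptor partner of PGC-1alpha, differed by 0.15 ± 0.13 (SE). Nrf1 and Tfam, a factor for transcription of mitochondrial DNA, had dim probes and differed by -0.14 ± 0.12 and -0.08 ± 0.25 (SE).

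Markers of cortical neurons, which are not striatal cells, varied far more between these mice than the respiratory chain did. The 11 measured of 12 cortical neuron markers had median deviations of -0.921, 0.550 and 0.383 in HD_miR196a mice 1 to 3, against -0.849 and 0.820 in HD mice 1 and 2. By this median mouse 1 of each group was low. Not every marker followed it, and Rasgrf2 had 11.99 in HD mouse 1, against 11.61 in HD mouse 2. The members' median deviations in the same mice were -0.014, -0.019 and -0.001 in HD_miR196a mice, against 0.044 and -0.027 in HD mice. Without mouse 1 of each group, a choice made after seeing the data, 43 of 73 members (58.9%) were above 0, against 50.4% of all named genes. Medium spiny neuron markers, of the main striatal cell type, were measured for 9 of 12 genes, and 8 were above 0, with a median of 0.38. Of the 9 genes, 6 were higher at an unadjusted p under 0.05 (limma), against 1.82% of all named genes. The groups did not overlap in 6, all higher, against 9.99% of all named genes. Median deviations of the list were 0.197, 0.203 and 0.035 in HD_miR196a mice 1 to 3, against -0.379 and -0.144 in HD mice 1 and 2. Its mean levels, 11.234 to 11.550 in HD_miR196a mice against 10.894 and 11.273 in HD mice, include Drd2. Drd2 was at or below 2.04 on the log2 scale in every mouse.

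The other marker lists were oligodendrocyte (6 of 7 measured, 6 above 0, median 0.246), astrocyte (6 of 7 measured, 4 above 0, median 0.016), microglia (6 of 7 measured, 3 above 0, median -0.001), endothelium (6 of 6 measured, 4 above 0, median 0.071), choroid plexus and ependyma (6 of 6 measured, 3 above 0, median 0.294) and blood (1 of 5 measured, 0.428). The mean level of the oligodendrocyte markers was 12.445 to 13.028 in HD_miR196a mice, against 12.251 and 12.669 in HD mice. For the astrocyte marker Slc1a3, HD mouse 1 had the floor value, while the remaining mice ranged over 12.57 to 13.72. No marker was called, and the part of cell composition in the members' values was not tested.

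**Figure D5:**
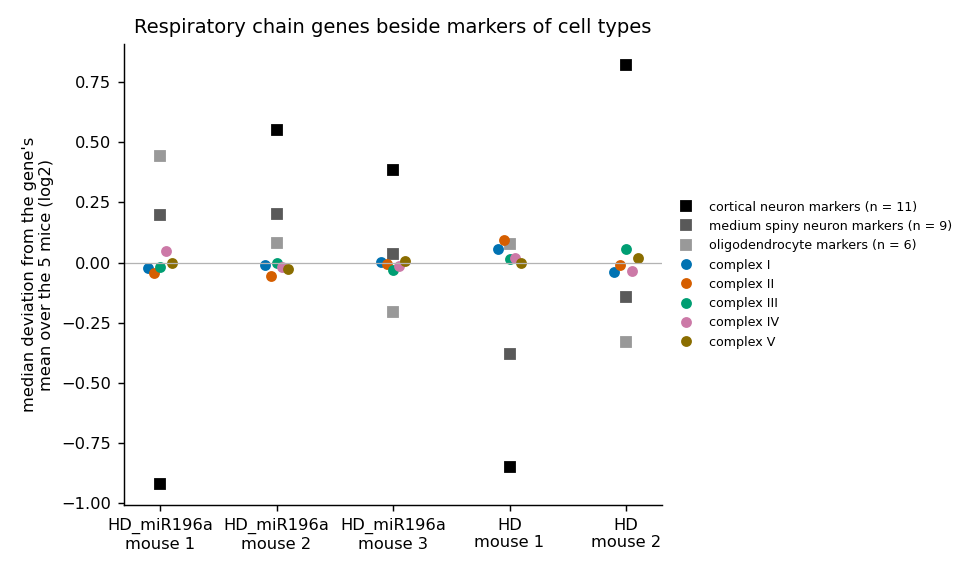
Median deviation (log2) from each gene's mean over the 5 mice, for each complex (circles) and for cortical neuron, medium spiny neuron and oligodendrocyte markers (squares), in each HD_miR196a and HD mouse. Cortical neuron markers range from -0.921 to 0.820, while the medians of the complexes stay between -0.056 and 0.092.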

How the data were processed

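Striatal RNA of 5 mice was measured on arrays. Per the labels, 2 technical repeats of each mouse were combined, so the mouse is the replicate. The deposited table holds linear intensities, with 312 to 370 values per mouse below 1. The sources used here do not name a scanner, software or scaling. Labels do not say whether mice of a group shared litters, and p-values measure only the spread between these mice. The number of arrays limits the precision.

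Values were quantile-normalized, floored at 1 and taken to log2. All probes were fitted with lmFit and eBayes of limma 3.58.1 under R 4.3.3 (two-sided, Benjamini-Hochberg threshold 0.05, residual degrees of freedom 3, prior 1.75); the fit was tested on simulated data. Platform symbols named 20377 probes and 6046 had none; 18213 symbols matched RefSeq directly, 2129 through a synonym and 35 not.

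The members, gene lists and markers were chosen with earlier results of these data known. The rule for named genes took the complex II genes and Cycs, in complexes I, III, IV and V the 3 smallest p and 2 highest levels, core subunits, isoforms of restricted range, subunit c genes, 5 regulators, and the 2 smallest p among assembly factors and citric acid cycle enzymes. Motif letters were searched in RefSeq promoter windows. The alternatives were other scalings, floors, filters, variance models, array weights, the mouse number as a block, left-out mice, probe and symbol rules, and complex assignment.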

Additional observations from a re-analysis of the deposited data

How the results depend on the processing

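No member had an adjusted p under 0.05, or under 0.1, in the reported fit or in any of the 14 alternative fits. Shares in brackets after counts are those of all named genes in the same fit; in the reported fit 3.71% had an unadjusted p under 0.05 and 20.7% did not overlap. Of 172 summary values under alternatives 131 stayed within the spread between mice of a group or within 1.5 times the count, and 41 moved. Some of the 131 could not move, so the count does not measure stability. Another variance model leaves every difference as it was. The floor, filters, probe and symbol rules and complex assignment left the medians of complexes II and III unchanged. Without scaling, the median differences were -0.224 (members), -0.224 (complex I), -0.307 (II), -0.262 (III), -0.139 (IV) and -0.244 (V), with 3 members above 0, 17 at an unadjusted p under 0.05 (14.9%) and 45 not overlapping (43.1%). With median centring they were -0.052 (members), -0.135 (II), -0.090 (III) and -0.072 (V), with 0 members at that p (3.95%) and 17 not overlapping (21.6%). Leaving out each mouse in turn gave median differences of -0.041 to 0.027 (members), -0.057 to 0.033 (complex I), -0.119 to -0.005 (II), -0.074 to -0.018 (III) and -0.010 to 0.043 (V), with 0 to 2 members at that p (2.61% to 5.06%) and 15 to 34 not overlapping (28.9% to 53.3%). A group with fewer mice is less likely to overlap, and where 1 HD mouse was left its spread was taken from the HD_miR196a mice. Without mouse 1 of each group, added after seeing the data, the medians were 0.024 (complex I), -0.007 (II) and 0.040 (V), with 0 members at that p (3.37%) and 49 not overlapping (67.3%). A floor at the olfactory receptor median (31.6) gave 5 members at that p (6.12%), the brighter 13211 probes, with 63 members, gave 1 at that p (4.02%) and 7 not overlapping (20.7%), and array weights gave -0.022 for complex V. The mice share only the numbers 1 and 2, whose deviations correlated at 0.236 and 0.17, so pairing was not established. With the mouse number as a replicate block on those 4 mice the members' median was -0.007, with 2 at that p (6.92%) and 18 not overlapping (37.7%). Of 485 values of named genes under alternatives, 411 stayed, 74 moved and 50 changed sign, none of them called. Some of the 411 likewise could not move. For dim probes, signal near background limits what can be seen. The groups were too small for a check of single outlying mice.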
